A study of Homo sapiens with 6 samples.

Results

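The HOX cluster genes were read from the RNA-Sequence counts of MDA-MB-231 cells, an established human line of triple-negative breast cancer. The members were every row of the count table whose symbol is HOX, a cluster letter from A to D and a number, which gave 39 of 54259 symbols. They comprised 11 HOXA, 10 HOXB, 9 HOXC and 9 HOXD genes. MDA-MB-231 shBry cells (3 libraries) carried a short hairpin RNA against brachyury, the T-box transcription factor of the early mesoderm, and MDA-MB-231 shNC cells (3 libraries) carried a control hairpin. Each group was thus 1 hairpin line of the same parental cells, with no other treatment given in the labels. The sources do not say whether the libraries of a group came from separate cultures, so the p-values measure only the spread between these libraries, which may be technical. Between 19319411 and 22985371 reads per library were counted on genes. Levels are given as CPM, the counts of a gene per 1000000 counts of the library. Where a gene had 0 counts, its level could have been as high as 3 counts, or 0.126 to 0.161 CPM depending on the library, a limit that covers counting error only.

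HOX genes encode homeodomain transcription factors that give cells their position along the head-to-tail axis of the embryo. They lie in 4 clusters on different chromosomes, and genes of the same number in different clusters (paralogs) descend from a common ancestral gene. Within a cluster the low numbers (anterior genes) lie towards the 3′ end and are used in the more anterior parts of the body, and the high numbers (posterior genes) in the more posterior parts. Adult cells and cell lines often keep the HOX pattern of the tissue they came from, and breast tumors are known to express genes of several clusters. Here positions 1 to 3 are called anterior, 4 to 8 central and 9 to 13 posterior.

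The homeobox is the stretch of coding sequence that all HOX genes share and that encodes the DNA-binding homeodomain. It is shown for 6 of the 7 HOX genes that differed between shBry and shNC cells, so that the members can be told apart where they are most alike. The coding strand was taken from GENCODE 29 transcripts on GRCh38, and capitals mark the codons of 5 residues of the third helix, which contacts DNA. The HOXB homeoboxes lie on the minus strand, at chr17:48543533-48543712 (HOXB2), chr17:48596473-48596652 (HOXB6) and chr17:48622921-48623100 (HOXB9). The HOXC homeoboxes lie on the plus strand, at chr12:54054876-54055055 (HOXC4), chr12:53989219-53989398 (HOXC10) and chr12:53945041-53945220 (HOXC13).
HOXB2: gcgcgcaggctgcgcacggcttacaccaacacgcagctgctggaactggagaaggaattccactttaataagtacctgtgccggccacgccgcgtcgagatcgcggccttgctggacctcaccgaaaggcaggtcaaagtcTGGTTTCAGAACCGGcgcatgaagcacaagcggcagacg
HOXB6: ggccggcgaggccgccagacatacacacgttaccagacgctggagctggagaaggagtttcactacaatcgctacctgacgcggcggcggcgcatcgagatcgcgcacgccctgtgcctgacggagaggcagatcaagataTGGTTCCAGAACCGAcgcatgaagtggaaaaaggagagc
HOXB9: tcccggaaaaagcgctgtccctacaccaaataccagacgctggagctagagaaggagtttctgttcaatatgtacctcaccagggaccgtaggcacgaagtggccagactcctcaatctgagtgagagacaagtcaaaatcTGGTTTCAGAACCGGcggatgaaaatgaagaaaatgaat
HOXC4: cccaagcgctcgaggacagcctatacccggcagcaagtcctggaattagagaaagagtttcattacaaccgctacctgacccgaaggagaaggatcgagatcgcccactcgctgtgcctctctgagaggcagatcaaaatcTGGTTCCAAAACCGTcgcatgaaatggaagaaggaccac
HOXC10: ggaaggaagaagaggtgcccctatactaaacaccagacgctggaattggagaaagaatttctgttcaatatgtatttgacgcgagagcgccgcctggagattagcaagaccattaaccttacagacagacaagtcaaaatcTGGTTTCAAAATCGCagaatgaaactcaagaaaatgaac
HOXC13: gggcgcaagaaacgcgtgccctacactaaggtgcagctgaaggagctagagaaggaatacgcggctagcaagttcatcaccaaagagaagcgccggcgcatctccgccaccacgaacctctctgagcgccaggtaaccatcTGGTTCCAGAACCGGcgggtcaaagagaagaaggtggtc

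Each of these homeoboxes is 180 bases long and lies in a single exon. Among the 6, the most alike were the posterior genes HOXB9 and HOXC10 and the central genes HOXB6 and HOXC4, with 128 identical bases (71.1%) in each pair. HOXC13 and HOXC4 shared the fewest bases, 92 (51.1%). No stretch of 50 bases of the transcripts of HOXB2, HOXB8, HOXB9 or HOXC13 occurred in transcripts of another gene, and for HOXC10, HOXB6 and HOXC4 5.2%, 14.6% and 16.3% of such stretches did.

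Of the 39 HOX genes, 28 had at least 1 count and 18 were expressed, that is, had 60 or more counts summed over the 6 libraries. The expressed genes were HOXB3 to HOXB9 (7 genes), HOXC4, HOXC5, HOXC6, HOXC8, HOXC9, HOXC10 and HOXC13 (7 genes), and HOXD1, HOXD3, HOXD4 and HOXD11 (4 genes). No HOXA gene was expressed. By position, 3 of 8 anterior, 10 of 15 central and 5 of 16 posterior members were expressed, and positions 2 and 12 held no expressed member. The members just inside the limit were HOXC13 with 70 counts and HOXD11 with 72, and those just outside were HOXB2 with 50 and HOXD10 with 20.

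The 11 HOXA genes together had 15 counts, 2 in the shBry and 13 in the shNC libraries, and no HOXA gene passed 4 counts in a library. Most of the shNC counts were in replicate 3, as the summed HOXA level was 0.0915, 0.0945 and 0.45 CPM in the shNC libraries. HOXA2, HOXA4, HOXA5, HOXA6, HOXA9 and HOXA10 were at 0 counts in all 6 libraries. HOXA7 had 5 counts, of which 4 were in shNC replicate 3, and HOXA3, HOXA11 and HOXA13 had 3 each. Of the genes that flank the HOXA cluster, SKAP2, an adaptor protein gene, had 343 to 570 counts per library and HIBADH, an enzyme of valine breakdown, 820 to 1875, while the homeobox gene EVX1 was at 0 in all 6 libraries. HOXB1, HOXB13, HOXC11, HOXC12 and HOXD8 were also at 0 in all 6 libraries. HOXD9, HOXD10, HOXD12 and HOXD13, next to the expressed HOXD11, had 15, 20, 6 and 11 counts in all. In all, 20 HOX genes did not pass the filter on low counts and were left out of the test. Without the filter, none of the 9 of them with at least 1 count was called, which at this depth does not show that they were unchanged.

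**Figure D1:**
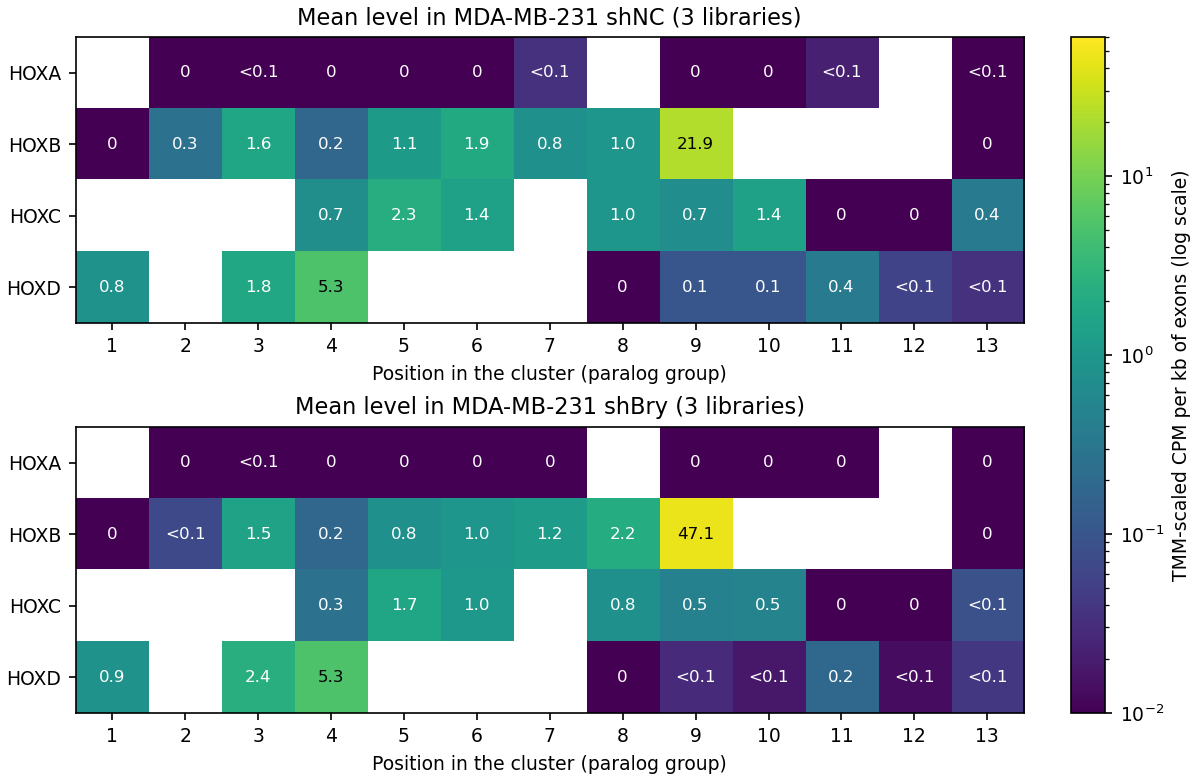
Mean level of 38 of the 39 HOX genes by cluster (rows) and position (columns) in shNC (top) and shBry cells (bottom), as CPM scaled by TMM per kilobase of exons on a log color scale; white cells are positions without a gene in that cluster or not reported. HOXB9 stood highest in both groups, at 21.9 in shNC and 47.1 in shBry cells, and the HOXA row was at or near 0.

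Levels of different genes were compared as CPM per kilobase of exons, with library totals scaled by TMM. HOXB9, a posterior gene expressed in many breast tumors, had the highest level over all exon bases, with a mean of 34.5 over the 6 libraries and a range of 20.5 to 48.4. HOXD4 followed with 5.28 (4.74 to 5.75), and HOXD3 with 2.1 (1.65 to 2.71). The ranges of HOXB9, HOXD4 and HOXD3 did not overlap each other. HOXC5 (2.01), HOXB3 (1.58), HOXB8 (1.56), HOXB6 (1.45) and HOXC6 (1.22) came next, and HOXB7, HOXB5, HOXC10, HOXC8, HOXD1 and HOXC9 lay between 0.994 and 0.586. The lowest expressed genes were HOXC4 (0.498), HOXD11 (0.273), HOXC13 (0.226) and HOXB4 (0.178). From HOXD3 downwards, every gene had a range that overlapped that of its neighbor in this order. The order differed between the groups, since HOXB8 was at place 4 of 18 in shBry and 11 in shNC cells, HOXB6 at 9 and 4, and HOXC10 at 13 and 7. HOXC4 was at place 15 in shBry cells and at 14 in shNC cells, there next to HOXC9 (0.731 and 0.707 per kilobase), with overlapping ranges. Exons of other annotated genes covered 80.5% of the exon bases of HOXD4 and 74.1% of those of HOXD3, so that the counting could have split or dropped their reads. Over the 286 exon bases of HOXD4 and the 920 of HOXD3 that no other gene covers, the same counts gave levels of 27 and 8.11 per kilobase. With these lengths HOXB9 was above HOXD4 in shBry cells (46.4 to 48.4 against 24.3 to 29.4 per kilobase) but below it in shNC cells (20.5 to 22.9 against 25 to 29.1), so the order of these genes depends on the length used.

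Among all tested genes the HOX genes were mostly of low abundance. The median CPM over the 15277 genes that passed the filter was 18.6. HOXB9 had a higher mean CPM than 83.7% of them, whereas HOXB3 and HOXD4, which came next in CPM, stood above 41.2% and 34.4%. In bulk RNA, fewer cells that express a gene and less RNA of it per cell cannot be told apart.

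Of the 39 members, 19 passed the filter on low counts and were tested with edgeR's quasi-likelihood test, that is, the 18 expressed genes and HOXB2. Genes were called where p, adjusted by the Benjamini-Hochberg method, was below 0.05 and the change exceeded 1.5-fold, and fold changes are given as shBry over shNC. Of the 19 tested members, 7 were called (36.8%), beside 32.4% of all tested genes. HOXB8 and HOXB9 were higher in shBry, while 17.1% of all tested genes were called higher. HOXB2, HOXB6, HOXC4, HOXC10 and HOXC13 were lower, while 15.2% of all tested genes were. The share of called members was thus close to that of all genes. The median log2 fold change was -0.41 over the tested members and 0.03 over all tested genes. HOXB2, HOXC4, HOXC13 and HOXD11 passed the filter only through the shNC libraries, where they were higher, so that their counts and the median over the members lean towards lower values.

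Without the fold change limit, 8 members had an adjusted p below 0.05, beside 53.3% of all tested genes. The eighth was HOXD3, whose adjusted p was above 0.05 with DESeq2 (0.067), without a filter (0.075), with a replicate block (0.057) and in 5 of the 6 fits without a library (0.075 to 0.14). In 9 of the 19 members the 3 shBry values did not overlap the 3 shNC values, beside 59.5% of all tested genes. Positive log2 fold changes were found for 7 of the tested members and negative ones for 12.

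**Figure D2:**
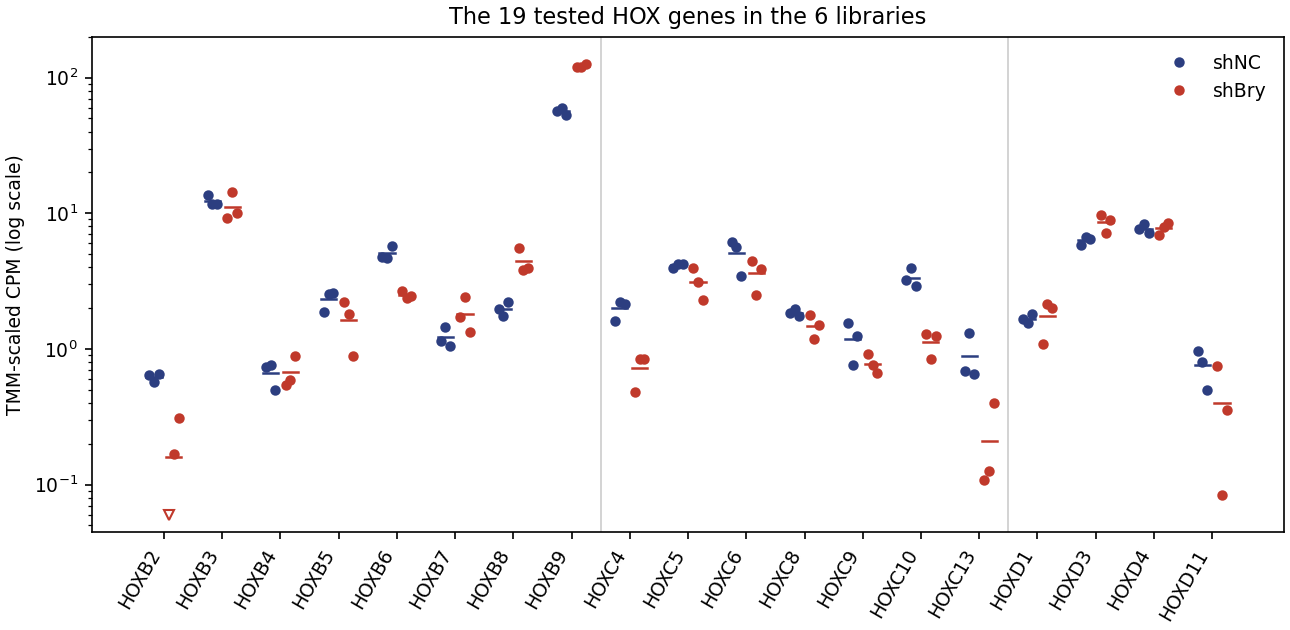
CPM scaled by TMM (log axis) of the 19 tested HOX genes in each shNC (blue) and shBry (red) library, with bars at the group means and vertical lines between the HOXB, HOXC and HOXD clusters; the open triangle is the shBry library with 0 counts of HOXB2. HOXB9 lay near 120 CPM in the 3 shBry and below 60 in the 3 shNC libraries, and HOXC4, HOXC10 and HOXC13 were lower in all 3 shBry libraries.

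The 2 genes that rose, HOXB8 and HOXB9, are neighbors at the posterior end of the expressed HOXB genes. HOXB9, at chr17:48621159-48626356 on the minus strand, had 119.8, 120.1 and 125 CPM in the 3 shBry libraries, given here and below in the order of their replicate numbers. The shNC libraries had 57, 59.2 and 53 CPM. The shBry libraries were all higher, and the groups were far apart relative to their spread. HOXB9 rose from 56.4 ± 3.16 to 122 ± 2.94 CPM (SD, n = 3), a 2.16-fold change (log2 fold change 1.11, SE 0.08, adjusted p = 7.8e-08). Its log2 fold change stayed between 1.04 and 1.12 whichever library was left out.

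HOXB8, at chr17:48611377-48614939 on the minus strand, encodes a factor known for holding blood progenitors in an immature state. It had 5.54, 3.79 and 3.94 CPM in the shBry libraries and 1.97, 1.75 and 2.2 CPM in the shNC libraries. All shBry values were higher, and shBry replicate 1 was the highest. HOXB8 rose from 1.97 ± 0.227 to 4.42 ± 0.97 CPM (SD, n = 3), a 2.23-fold change (log2 fold change 1.16, SE 0.23, adjusted p = 0.00068). Leaving out any library kept the log2 fold change of HOXB8 between 0.97 and 1.24. No exon of another gene overlaps HOXB8 or HOXB9.

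HOXB7, the next gene towards the anterior end, had a log2 fold change of 0.58 (95% interval -0.08 to 1.23, adjusted p = 0.13). Its values, 1.72, 2.4 and 1.33 CPM in shBry and 1.14, 1.46 and 1.05 CPM in shNC cells, overlapped.

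HOXB6, at chr17:48595751-48604992 on the minus strand, is a central gene that is expressed in the lung and the limb bud of the embryo. It had 2.69, 2.36 and 2.44 CPM in shBry and 4.76, 4.68 and 5.75 CPM in shNC libraries, with no overlap between the groups. HOXB6 fell from 5.06 ± 0.6 to 2.49 ± 0.173 CPM (SD, n = 3), with a log2 fold change of -1.02 (SE 0.19, adjusted p = 0.00053). Exons of other genes overlap 32.9% of its exon bases, and those of other HOX genes overlap 16.6%, so that part of its reads is uncertain.

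HOXB2, an anterior gene that patterns the hindbrain, lies at chr17:48540894-48544989 on the minus strand. It had 0, 0.168 and 0.31 CPM in shBry libraries, from 0 to 7 counts, and 0.641, 0.567 and 0.65 CPM in shNC libraries, from 12 to 14 counts. Its log2 fold change was -1.85 (SE 0.61, adjusted p = 0.02), a call that rests on 50 counts in all. The adjusted p rose to 0.053 without shBry replicate 1, to 0.055 without shNC replicate 1 and to 0.057 without shNC replicate 3, so the call was lost in those 3 fits. Their log2 fold changes were -1.36, -1.83 and -1.84, and the 6 fits with a library left out ranged from -2.65 (without shBry replicate 3) to -1.36.

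HOXB3 (log2 fold change -0.13, 95% interval -0.49 to 0.23), HOXB4 (0.02, -0.80 to 0.85) and HOXB5 (-0.53, -1.20 to 0.14) were not called. HOXB3, which had the second highest CPM among the HOX genes, ranged from 9.2 to 14.3 CPM in shBry and from 11.7 to 13.6 CPM in shNC libraries. The annotated HOXB3 gene contains HOXB4 and HOXB5 and overlaps HOXB6, and exons of other genes overlap 13.2% of its exon bases.

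By place in the cluster, the summed CPM of HOXB2 to HOXB6 was 16.2 ± 2.63 in shBry and 21 ± 0.731 in shNC cells (SD, n = 3). That of HOXB7 to HOXB9 was 128 ± 2.13 and 59.6 ± 3.13. This split lies where the called genes turn from lower to higher in these same data. Most of the first sum was HOXB3 (11.2 and 12.3 CPM), which was not called. Most of the second was HOXB9 (122 and 56.4 CPM), so the sums say little of the other genes. Of the 8 tested HOXB genes, 4 were called, 2 in each direction, beside 32.4% of all tested genes. The lower ones were at positions 2 and 6 and the higher ones at positions 8 and 9. Of these, HOXB2 passed the filter only through the shNC libraries, and its call was lost in 3 of the 6 fits without a library.

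**Figure D3:**
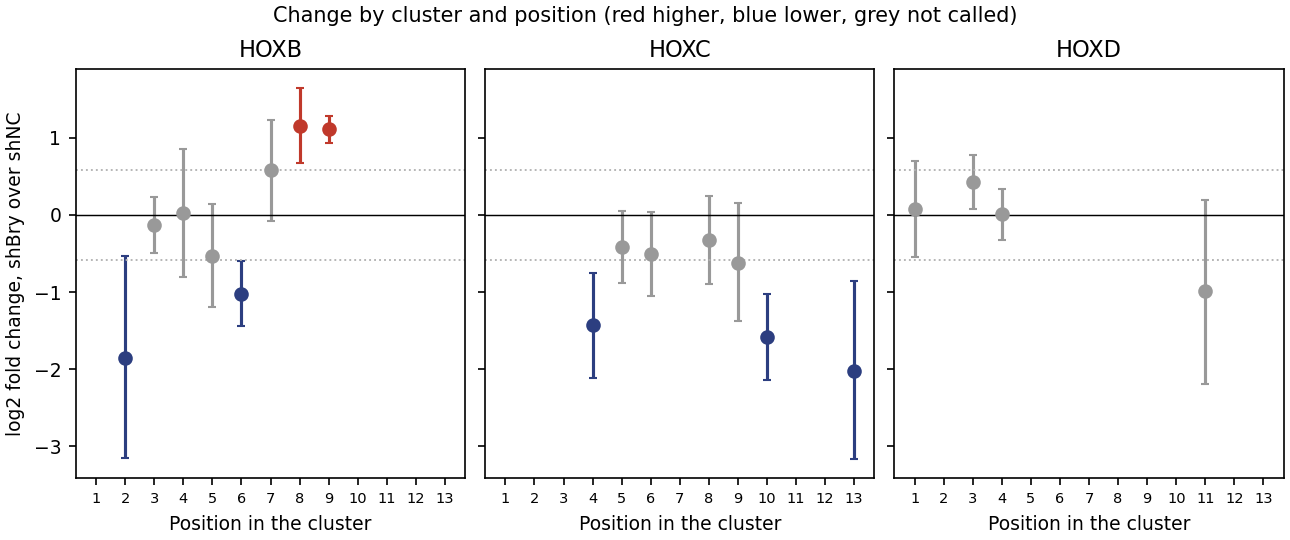
Log2 fold change of shBry over shNC cells for each tested HOX gene against its position in the HOXB, HOXC and HOXD clusters, with 95% intervals; red points were called higher, blue points lower and grey points not called, and dotted lines mark a fold change of 1.5. In HOXB the called genes lie below 0 at positions 2 and 6 and above 0 at positions 8 and 9, in HOXC all 7 points lie below 0, and in HOXD no gene was called. The points of HOXB2, HOXC4, HOXC13 and HOXD11 are of genes that passed the filter only through the shNC libraries.

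All 7 tested HOXC genes had a negative log2 fold change, with a median of -0.62. Of them 3 were called lower, beside 15.2% of all tested genes. Both HOXC4 and HOXC13 passed the filter only through the shNC libraries, where they were higher, so their negative sign was favored by the filter. HOXC10, a posterior gene expressed in the trunk and hindlimb, lies at chr12:53985065-53990279 on the plus strand. It had 1.29, 0.842 and 1.24 CPM in shBry and 3.2, 3.92 and 2.9 CPM in shNC libraries. Every shBry value was below every shNC value. HOXC10 fell from 3.34 ± 0.523 to 1.12 ± 0.246 CPM (SD, n = 3), and its log2 fold change was -1.58 (SE 0.26, adjusted p = 0.00016).

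HOXC4, the most anterior gene of the HOXC cluster, is at chr12:54016931-54056030 on the plus strand. Its level was 0.484, 0.842 and 0.842 CPM in shBry and 1.6, 2.22 and 2.15 CPM in shNC libraries, again without overlap. HOXC4 fell from 1.99 ± 0.339 to 0.723 ± 0.207 CPM (SD, n = 3), and its log2 fold change was -1.43 (SE 0.32, adjusted p = 0.0016). Other genes overlap 17.8% of its exon bases.

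HOXC13, at chr12:53938765-53946544 on the plus strand, is the most posterior gene of its cluster and is known for its role in hair and nails. It had 0.108, 0.126 and 0.399 CPM in shBry libraries and 0.687, 1.32 and 0.65 CPM in shNC libraries. The shBry values were all lower, and shNC replicate 2 stood highest. HOXC13 fell from 0.887 ± 0.378 to 0.211 ± 0.163 CPM (SD, n = 3), and its log2 fold change was -2.02 (SE 0.54, adjusted p = 0.0059), on 70 counts in all. Its log2 fold change ranged from -2.85 to -1.63 with each library left out, and the adjusted p reached 0.049.

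The other HOXC genes were not called. HOXC5 had 3.93, 3.12 and 2.3 CPM in shBry and 3.94, 4.25 and 4.2 CPM in shNC libraries, values that did not overlap but nearly touched (log2 fold change -0.41, 95% interval -0.88 to 0.05, adjusted p = 0.13). The intervals of HOXC6 (log2 fold change -0.50, -1.05 to 0.04), HOXC8 (-0.33, -0.90 to 0.24) and HOXC9 (-0.62, -1.38 to 0.15) also included 0. Without shBry replicate 1, HOXC5 (-0.61, adjusted p = 0.04) and HOXC6 (-0.69, adjusted p = 0.041) were called lower, and HOXC6 was called without shNC replicate 3 too (-0.74, adjusted p = 0.024). Between 4 and 7 HOX genes were called lower in the 6 fits with a library left out. Summed over the cluster, HOXC genes had 13, 9.35 and 10.8 CPM in shBry and 19, 20.1 and 16.4 CPM in shNC libraries.

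HOXC4 and HOXC5 have an identical promoter window in the RefSeq table (GRCh38.p14), from 250 bases before to 50 after the annotated start, at chr12:54016638-54016937 on the plus strand. The window is shown because HOXC4 was called lower and HOXC5 was not, although this start is annotated for both genes. Capitals mark ATTGG, the reverse complement of the CCAAT box, which occurs at 2 places.
HOXC4 and HOXC5: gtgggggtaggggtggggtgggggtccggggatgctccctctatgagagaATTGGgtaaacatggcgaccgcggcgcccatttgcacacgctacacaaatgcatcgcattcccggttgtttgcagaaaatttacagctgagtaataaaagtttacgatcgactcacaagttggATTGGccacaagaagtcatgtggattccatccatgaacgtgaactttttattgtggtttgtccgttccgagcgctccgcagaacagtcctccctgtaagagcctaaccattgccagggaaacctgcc

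RefSeq windows were at hand for 20 of the 39 HOX genes, 27 windows in all, of which HOXA3 holds 7, and none of the HOXB2 to HOXB9 or HOXC6 to HOXC13 windows was among them. On both strands, a CCAAT box (CCAAT) was in 18 of the 27 windows and in 34.6% of 35116 windows of all genes. A TATA box (TATAAA) was in 5 windows, beside 11.5% of all, and the letters TGATNNAT, a site for HOX proteins bound with PBX, were in 3, beside 7.4%. AGGTGTGA, the core letters bound by brachyury and other T-box factors, was in none of the 27 windows and in 0.98% of all windows. At so low a share, its absence from 27 windows says little. Of the called HOX genes only HOXC4 had a window, and the window that it shares with HOXC5 is counted for both. The HOX windows held between 0 and 44 CpG dinucleotides with a median of 22, against a median of 14 for all windows.

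No HOXD gene was called. HOXD3, an anterior gene, had 9.63, 7.16 and 8.9 CPM in shBry and 5.86, 6.71 and 6.5 CPM in shNC libraries, without overlap. Its log2 fold change of 0.43 (95% interval 0.08 to 0.78, adjusted p = 0.039) stayed under the fold change limit. HOXD4 was at 6.94, 7.87 and 8.42 CPM in shBry and 7.64, 8.31 and 7.16 CPM in shNC cells. The log2 fold change of HOXD4 was 0.01, and its interval of -0.32 to 0.34 does not reach a fold change of 1.5 in either direction. HOXD1 (0.08, -0.55 to 0.70) was not called either. HOXD11 had 0.753, 0.0842 and 0.354 CPM in shBry and 0.961, 0.803 and 0.5 CPM in shNC libraries (log2 fold change -0.99, 95% interval -2.19 to 0.20, adjusted p = 0.15). Without shBry replicate 1, HOXD11 was called lower (-1.79, adjusted p = 0.021). HOXD10, which was not tested, had 3 counts in the shBry and 17 in the shNC libraries, and HOXD9 had 3 and 12.

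Paralogs were set side by side by position. At position 9 HOXB9 rose, whereas HOXC9 had 0.914, 0.758 and 0.664 CPM in shBry and 1.56, 0.756 and 1.25 CPM in shNC libraries. At position 8 HOXB8 rose, and HOXC8 had a mean of 1.49 ± 0.298 CPM in shBry and 1.86 ± 0.118 CPM in shNC cells (SD, n = 3). At position 6 HOXB6 fell and HOXC6 had 3.6 ± 1.01 CPM in shBry and 5.07 ± 1.42 CPM in shNC cells. At position 4 HOXC4 fell, while HOXB4 (0.671 ± 0.188 and 0.663 ± 0.141 CPM) and HOXD4 (7.74 ± 0.747 and 7.7 ± 0.581 CPM) had nearly equal means in both groups. The 95% intervals of HOXB9 and HOXC9, of HOXB8 and HOXC8, and of HOXC4 and HOXD4 do not overlap, those of HOXB6 and HOXC6 and of HOXC4 and HOXB4 do, and the difference between paralogs was not tested. By region, 1 of 4 tested anterior genes was called (HOXB2), 3 of 10 central genes (HOXB6, HOXB8 and HOXC4) and 3 of 5 posterior genes (HOXB9, HOXC10 and HOXC13), beside 32.4% of all tested genes. HOXB2, HOXC4 and HOXC13, 1 in each region, are among the members that passed the filter only through shNC, and the difference between regions was not tested.

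Summed over all 39 members, HOX genes took 173, 172 and 176 CPM in shBry and 118, 121 and 111 CPM in shNC libraries, a ratio of the means of 1.49. HOXB9 made up 69.1%, 69.8% and 71.1% of the HOX counts in shBry and 48.4%, 49.1% and 47.8% in shNC libraries. Without HOXB9 the sum was 52.1 ± 1.46 CPM in shBry and 60 ± 1.88 CPM in shNC cells (SD, n = 3), a ratio of 0.869. The sums by cluster were 144 ± 2.07 and 80.6 ± 2.81 CPM for HOXB, 11 ± 1.82 and 18.5 ± 1.9 CPM for HOXC, and 18.7 ± 1.31 and 17.1 ± 0.591 CPM for HOXD. The HOXB sum and the HOXC sum did not overlap between the groups, and neither did the values of 59.5% of all tested genes. Leaving out HOXB9, the HOXB sum was 22.4 ± 2.77 CPM in shBry and 24.2 ± 0.694 CPM in shNC cells, and the groups overlapped.

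**Figure D4:**
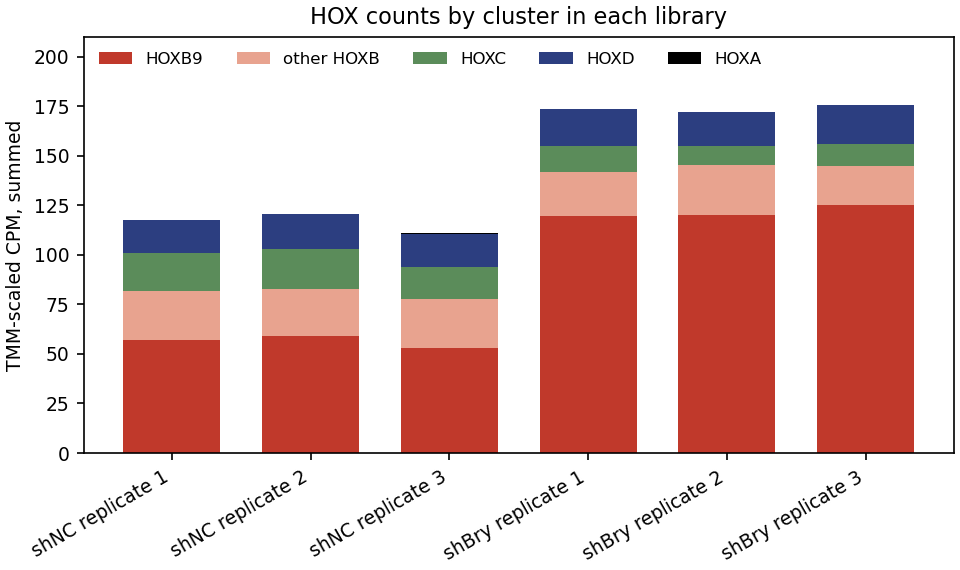
Stacked bars of the summed CPM (TMM-scaled) of HOXB9, the other HOXB genes, HOXC, HOXD and HOXA in each library. The shBry bars reach 172 to 176 and the shNC bars 111 to 121, with 119.8 to 125 CPM of HOXB9 in shBry and 53 to 59.2 in shNC libraries.

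The other genes of the HOX system were taken from 6 lists. HOX cofactors are TALE homeodomain proteins that bind DNA together with HOX proteins. The list of 10 names also held PBXIP1, which is not a homeodomain protein. Of the 10 names 8 were tested and 2 were called, both lower (25%, beside 32.4% of all genes), with a median log2 fold change of -0.19. PBXIP1, which binds PBX proteins and keeps them from DNA, fell from 59.4 ± 4.66 to 35.1 ± 3.3 CPM (SD, n = 3, log2 fold change -0.76, adjusted p = 2.6e-05). MEIS3 (-0.34) and PKNOX1 (0.39) had an adjusted p of 0.0084 and 0.013 under the fold change limit.

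Polycomb proteins keep HOX genes silent and trithorax proteins keep them active. Of 46 such genes, all tested, 7 were called (15.2%), a smaller share than the 32.4% of all tested genes, 2 higher and 5 lower, with a median of -0.03. The 2 that rose, KDM6B and KDM6A, encode demethylases that remove the repressive mark on lysine 27 of histone H3. KDM6B had 150.1, 156 and 142 CPM in shBry and 45.5, 41.7 and 41.7 CPM in shNC libraries (log2 fold change 1.80, SE 0.08, adjusted p = 7.7e-10). KDM6A rose from 6.03 ± 0.199 to 9.79 ± 0.514 CPM (SD, n = 3, 0.70, adjusted p = 0.001). EZH2, an enzyme that sets that mark, fell from 40.4 ± 3.48 to 26.2 ± 1.91 CPM (SD, n = 3, -0.62, adjusted p = 0.00023). Its change was just under the fold change limit without shBry replicate 2 (-0.58). RBBP4 (-0.99), RBBP7 (-0.71), CBX7 (-0.78) and CBX2 (-0.63), other subunits of Polycomb complexes, were also lower. Not called were EZH1, the other enzyme for that mark (49.6 ± 1.04 CPM in shNC and 52.1 ± 0.444 CPM in shBry cells, 0.07, adjusted p = 0.5), EED (-0.27) and SUZ12 (-0.36).

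Of 34 noncoding genes of the HOX clusters, 26 were in the table, 15 of these were at 0 in all libraries and 2 were tested, neither of them called. HAGLR, an antisense RNA of the HOXD cluster, had 23.3 ± 0.288 CPM in shNC and 17.8 ± 0.842 CPM in shBry cells (SD, n = 3), a difference under the fold change limit (log2 fold change -0.39, adjusted p = 0.0083). HAGLROS, which lies beside it, had a log2 fold change of 0.68 (adjusted p = 0.21). HOTAIR and HOTTIP, long noncoding RNAs of the HOXC and HOXA clusters, had 2 counts and 1 count in all.

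Of 35 genes named as flanking the clusters, 26 were tested and 6 were called (23.1%, beside 32.4% of all tested genes). Of these 5 were higher and 1 lower, and the median of the list was 0.08. On the chromosome of HOXB, NFE2L1, a stress-response transcription factor, rose from 522 ± 17.1 to 1283 ± 42.5 CPM (SD, n = 3, log2 fold change 1.30, adjusted p = 6.4e-09). CALCOCO2, an autophagy receptor gene, had a log2 fold change of 1.01 (adjusted p = 1.5e-07), and TTLL6 one of 1.31 (adjusted p = 0.038). TTLL6 passed the filter only through the shBry libraries, where it was higher (0.592, 0.8 and 0.62 CPM, beside 0.275, 0.425 and 0.1 in shNC). Its positive sign was thus favored by the filter. The TTLL6 call, on 61 counts in all, was lost with DESeq2 (1.30, adjusted p = 0.12), without a filter on low counts (1.28, adjusted p = 0.062) and in 5 of the 6 fits without a library, the exception being shNC replicate 2. In those 5 fits its log2 fold change was 0.92 to 1.38. Beside HOXA, HIBADH rose (0.92, adjusted p = 1.1e-06), and SKAP2 (0.03, adjusted p = 0.87) was not called. On the chromosome of HOXD, NFE2L2 rose (0.72, adjusted p = 3.1e-05) and ATP5G3 fell (-0.64, adjusted p = 1.6e-05), at distances from the cluster that were not measured. KIAA1715 (-0.21, adjusted p = 0.22) and MTX2 (0.28, adjusted p = 0.042), also listed for HOXD, were not called, and EVX2 was at 0 in all 6 libraries.

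Retinoic acid, made from vitamin A, is a known inducer of HOX genes. Of 24 retinoid genes 14 were tested and 3 were called (21.4%, beside 32.4% of all tested genes), with a median of -0.24. RARB, a retinoic acid receptor, fell from 5.62 ± 0.95 to 2.96 ± 0.467 CPM (SD, n = 3, log2 fold change -0.92, adjusted p = 0.0016). RDH10, which makes retinal, fell (-0.68, adjusted p = 0.001), and DHRS3, which turns retinal back into retinol, rose (0.85, adjusted p = 0.001).

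Of 61 other homeobox genes of the ANTP class, to which HOX genes belong, 29 were at 0 in all libraries and 21 were tested. Of these 4 were called (19%, beside 32.4% of all tested genes), with a median of -0.13. NKX2-8 (log2 fold change 1.75, adjusted p = 2.6e-05) and DLX3 (1.09, adjusted p = 0.0014) rose. NKX2-1, the thyroid and lung factor, fell from 35.9 ± 3.22 to 17.3 ± 2.17 CPM (SD, n = 3, -1.05, adjusted p = 7.5e-06), and MEOX1 fell (-2.49, adjusted p = 0.00023). MEOX1, with 113 counts in all, had 0.484, 0.168 and 0.177 CPM in shBry and 1.6, 1.75 and 1.2 CPM in shNC libraries. It passed the filter only through the shNC libraries, where it was higher, so its negative sign was favored by the filter.

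**Figure D5:**
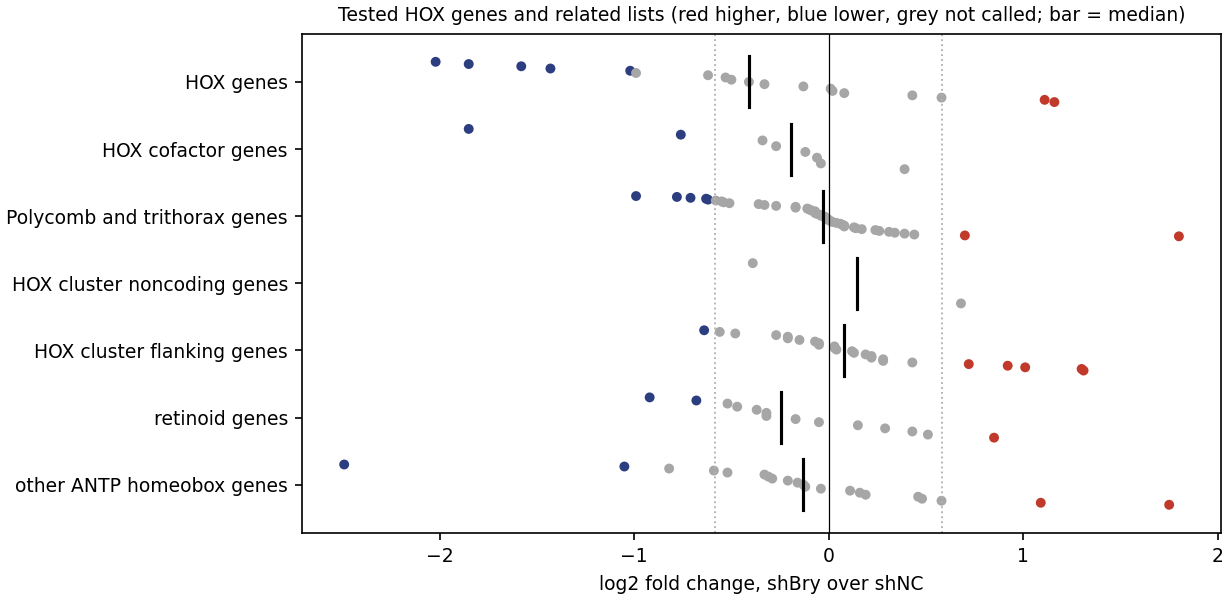
Log2 fold change of shBry over shNC cells for each tested gene (points) of the HOX genes and the 6 related lists, with a bar at each median; red points were called higher, blue lower and grey not called, and dotted lines mark a fold change of 1.5. The HOX genes spread from -2.02 (HOXC13) to 1.16 (HOXB8), and KDM6B at 1.80 and MEOX1 at -2.49 are the outermost points. Both HOXC13 and MEOX1 passed the filter only through the shNC libraries.

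Brachyury, listed as T, had 0 counts in all 6 libraries, and the knockdown could therefore not be checked from its own target. The study describes brachyury as constitutively overexpressed in MDA-MB-231 cells, which the counts of the shNC libraries do not show. Its protein was not part of these data. VIM, CD44, EGFR and KRT18 were high in all libraries and ESR1, PGR and CDH1 had at most 2 counts in each, as is known of MDA-MB-231 cells, although GATA3 had 201 to 313. The series text calls the RNA pericardial. All 5 heart muscle markers (at most 2 counts in a library), all 5 leukocyte markers (at most 3) and all 3 endothelial markers (at most 13) were at or near 0. Of the 5 mesothelial markers, WT1 and UPK3B were near 0, and the list summed to 51.4 to 57.7 CPM in shBry and 40.1 to 42 CPM in shNC libraries, mostly MSLN. The summed fibroblast markers were at 31.4 to 35 and 29.4 to 34.6 CPM, with DCN at 0 in all libraries. CALB2 had 222 counts in shNC replicate 3 and 14 to 30 in the other libraries; the part of these genes in the HOX differences was not tested.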

How the data were processed

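RNA of MDA-MB-231 shBry and shNC cells was sequenced on an Illumina HiSeq instrument. The authors deposited raw counts, that is, whole numbers of reads per gene symbol, without normalization. The submitters' processing notes name HISAT2 2.0.4, HTSeq and GRCh38. The annotation, the counting mode and the strand setting are not given in the sources used here, so that reads of a gene and of an overlapping or antisense gene cannot be told apart.

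Samples were grouped by their labels. The filterByExpr function of edgeR 4.0.16 (R 4.3.3), with a minimum count of 10, left 15277 of 54259 symbols, at a limit of 0.466 CPM. TMM factors were applied to the library totals. The 2 groups were then compared with edgeR's quasi-likelihood test, and p was adjusted over all tested genes after Benjamini and Hochberg. Called genes had an adjusted p below 0.05 and changed more than 1.5-fold. SE and 95% intervals come from the fit. No 2 libraries of a group were alike within sampling noise (chi-square per degree of freedom 4.94 to 16.7). The first principal component held 75.7% of the variance. The tests were checked on simulated counts.

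Gene positions, exon lengths, overlaps and homeobox sequences came from GENCODE 29, matched by symbol. Every expressed, called or nearly called HOX gene was named, and from the 6 lists called genes and at most 4 others. Further genes (SKAP2, EVX1, KIAA1715, MTX2, EVX2, HOTAIR, HOTTIP, EZH1, EED and SUZ12) were chosen after their values were seen. The members and lists were chosen with earlier results of these data known. The alternatives were totals without TMM, DESeq2 1.42.0, limma-voom 3.58.1, other filters and fold change limits, unadjusted p, a block for the replicate number, leaving out each library, and other gene lengths and limits for expression. ChIP-seq and other data of the study were not analysed here. A few genes and sequences are left out of the text and are not reported here.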

Additional observations from a re-analysis of the deposited data

How the results depend on the processing

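HOXB6, HOXB8, HOXB9 and HOXC10 kept their direction and call in each of 13 alternative settings, and HOXC4 and HOXC13 in each of the 12 that tested them. With at least 10 counts required in every library, 2 HOX genes were called lower in place of 5, because this filter removed HOXB2, HOXC4 and HOXC13. The HOXB2 call was lost in 3 of the 6 fits without a library. The sign of genes with a log2 fold change near 0 turned in some settings, none of them called. HOXB4 was at -0.0030 with DESeq2, -0.0042 without a filter and -0.23 to 0.14 with a library left out. HOXD4 was at -0.01 with DESeq2, without TMM and without a filter, and at -0.07 to 0.08 with a library left out. HOXD1 ranged from -0.11 to 0.31 with a library left out. Between 15 and 19 HOX genes counted as expressed under the other limits.

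Without a fold change limit 8139 genes were called in all, with 4 cofactor, 15 Polycomb and trithorax, 1 noncoding, 11 flanking and 9 retinoid genes. With a limit of 2 these were 2297 genes in all and 1, 1, 0, 3 and 0. With a library left out, 3 to 5 retinoid genes (5 without shNC replicate 3) and 4 to 8 other ANTP homeobox genes were called (8 without shBry replicate 1, 7 without shBry replicate 2 and 7 without shNC replicate 3). The cause of these changes was not tested.

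Replicate numbers did not pair the libraries: deviations from the group means correlated at 0.18, -0.08 and -0.03 between libraries of the same number. With the replicate number as a block, 4914 genes were called in all, and the same 2 HOX genes were higher and 5 lower, HOXB9 with a log2 fold change of 1.11 and HOXB2 with -1.92. Of the shBry libraries, replicate 1 alone correlated best with the shNC library of its own number. Genes of few counts limit the depth of the comparison: 20 HOX genes did not pass the filter. Without it, the 9 of them that had counts were fitted and none was called.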
